A study of Drosophila melanogaster with 2 samples.

Results

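The genes described here encode subunits of the mitochondrial respiratory chain and of ATP synthase that are carried on the nuclear chromosomes. They were chosen by a rule on names, with earlier results of these data known. The rule took protein-coding genes of Ensembl release 115 whose symbol begins with ND-, UQCR-, COX and a digit, ATPsyn or SdhA to SdhD. The rule found 87 of the 13968 protein-coding genes on the chromosome arms, with 40 for complex I, 7 for complex II, 9 for complex III, 16 for complex IV and 15 for complex V. Of the 87, 24 are copies whose symbol ends in L, or in L and a digit, as in ND-24L or COX7AL2. They are called -like copies below and were counted apart from the other 63, called principal genes. The L of ND-MNLL comes from the residues the subunit is named after, so this gene was kept among the principal ones.

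The protein mapped was Sry-beta, a C2H2 zinc finger protein. Its binding was measured by ChIP-seq, in which DNA that comes down with a protein is sequenced, in whole Drosophila melanogaster embryos of both sexes aged 0 to 12 h. The embryos came from a transgenic line that stably expresses Sry-beta with GFP fused to its C-terminus. Chromatin was sonicated to 200 to 800 bp. The series has 1 group of 2 biological replicates, numbered 2 and 4, both of that line, age and tissue, so no conditions could be compared. In the labels, a line of free text calls both libraries an input control, but an antibody (Sry-β) and a transcription factor ChIP assay are also named for each, and each has its own peaks. They were treated as ChIP libraries, which was not tested. All results are from 4 peak lists on the dm6 assembly: 3257 peaks that passed the authors' irreproducible discovery rate (IDR) procedure, and relaxed lists of 30000 peaks and background from replicate 2, replicate 4 and both pooled. No read counts are in these lists, so depth is unknown, and the authors' signal value has no stated scale and is compared only within a list. The authors made the lists against a control alignment, which was not analysed here. The lists hold no expression values, so the tissue could not be checked by markers.

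Complex I takes electrons from NADH and complex II takes them from succinate. Both pass them through complex III and cytochrome c to complex IV, which reduces oxygen, and complex V uses the resulting proton gradient to make ATP. Apart from complex II, each of these assemblies joins nuclear-encoded subunits with subunits encoded in mitochondrial DNA. The -like copies of these genes in Drosophila are known mainly for expression in the testis. A few principal subunits carry other symbols (blw, levy, cype, RFeSP and Cyt-c1 among them), are outside the naming rule and are given with the related gene lists near the end.

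The sequences below surround the 3 highest member peaks with a summit within 500 bp of a TSS (ND-MNLL, ND-24 and ATPsynO), a peak whose summit lay almost at the TSS (ND-SGDH), and 6 peaks with a match to Motif 1 or to the word CAGCTG, so that the DNA under the summits can be read beside their values. Each is 101 bases of dm6, from 50 bases before to 50 after the summit, on the strand of the gene and 5′ to 3′. Capitals mark matches, on either strand, to GGTCACAC, the 8-base core of the promoter element Motif 1, or to CAGCTG, an E-box palindrome. They lie at chrX:7893811-7893911 (ND-MNLL, minus strand), chrX:17632173-17632273 (ND-24, plus), chr3R:15265528-15265628 (ATPsynO, plus), chr3L:12138528-12138628 (ND-SGDH, minus), chrX:15063811-15063911 (ND-B18, plus), chr3R:22027455-22027555 (ND-42, plus), chr3L:16584170-16584270 (UQCR-C2, plus), chr3R:14890172-14890272 (UQCR-C1, plus), chr3R:23356089-23356189 (ATPsynCF6, minus) and chr2L:3466042-3466142 (ND-PDSW, plus).
ND-MNLL: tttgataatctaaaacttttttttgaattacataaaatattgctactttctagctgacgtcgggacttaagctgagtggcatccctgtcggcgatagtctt
ND-24: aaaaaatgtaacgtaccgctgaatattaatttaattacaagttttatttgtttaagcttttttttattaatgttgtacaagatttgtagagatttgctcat
ATPsynO: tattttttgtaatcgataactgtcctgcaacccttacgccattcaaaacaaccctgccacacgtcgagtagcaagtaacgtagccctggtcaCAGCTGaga
ND-SGDH: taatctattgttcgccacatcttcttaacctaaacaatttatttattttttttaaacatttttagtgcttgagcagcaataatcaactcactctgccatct
ND-B18: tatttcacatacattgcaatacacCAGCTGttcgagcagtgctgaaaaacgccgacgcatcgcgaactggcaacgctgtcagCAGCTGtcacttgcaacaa
ND-42: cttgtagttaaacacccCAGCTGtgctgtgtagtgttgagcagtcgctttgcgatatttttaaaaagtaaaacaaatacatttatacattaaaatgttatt
UQCR-C2: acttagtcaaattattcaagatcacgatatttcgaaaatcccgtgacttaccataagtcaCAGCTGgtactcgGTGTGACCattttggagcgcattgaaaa
UQCR-C1: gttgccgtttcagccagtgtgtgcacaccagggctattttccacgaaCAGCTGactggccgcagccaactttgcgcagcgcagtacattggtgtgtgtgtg
ATPsynCF6: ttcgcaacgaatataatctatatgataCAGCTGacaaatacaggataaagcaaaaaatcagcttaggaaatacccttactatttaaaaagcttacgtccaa
ND-PDSW: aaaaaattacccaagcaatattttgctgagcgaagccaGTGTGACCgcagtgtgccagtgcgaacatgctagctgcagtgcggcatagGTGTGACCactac

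Sry-beta summits were found at the promoters of 19 of the 87 genes (21.8%, 95% Wilson interval 14.5 to 31.6) in the IDR list, counting summits within 500 bp of any annotated transcription start site (TSS) of the gene. Over all protein-coding genes the share was 18.0%. All 19 were principal genes, which made 30.2% of the 63 (20.2 to 42.4), while 0 of the 24 -like copies had an IDR summit (0 to 13.8). The intervals cover the number of genes only. In the 3257 highest peaks of each replicate taken alone, 22 principal genes had a summit in replicate 2 (34.9%, all genes 18.5%) and 17 in replicate 4 (27.0%, all genes 17.4%). Their mean was 31.0% ± 5.61 (SD, n = 2). Of these genes, 14 had one in both replicates (22.2%, all genes 13.2%). By arm, the IDR share of principal genes was highest on 3R, with 6 of 13 (all genes there 19.3%), and X, with 5 of 12 (all genes there 17.6%), and on 2L it was 2 of 12 (all genes there 19.1%). In replicates 2 and 4 alone the counts were 5 and 1 on 2L (all genes there 19.3% and 18.3%). They were 6 and 6 on 3R (19.0% and 19.3%) and 5 and 4 on X (18.3% and 17.0%). With 1 group and genes chosen by name, these shares are given as a description beside those of all genes, with no test.

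The relaxed lists, which by their own name mix peaks with background, held a summit near nearly every principal gene. In the pooled relaxed list 52 of the 63 (82.5%) had a summit within 500 bp, against 53.1% of all genes. In replicate 2 the count was 54 (85.7%, all genes 54.6%) and in replicate 4 it was 50 (79.4%, all genes 50.4%). At least 1 of the 3 relaxed lists had a summit at 59 of the 63 (93.7%, all genes 62.5%). The 4 without any were all genes of complex I, namely ND-75, an iron-sulfur subunit, and ND-B12, ND-B14 and ND-MLRQ. Among the -like copies only 3 of 24 had a pooled relaxed summit (12.5%), and 6 had a summit in any relaxed list.

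**Figure D1:**
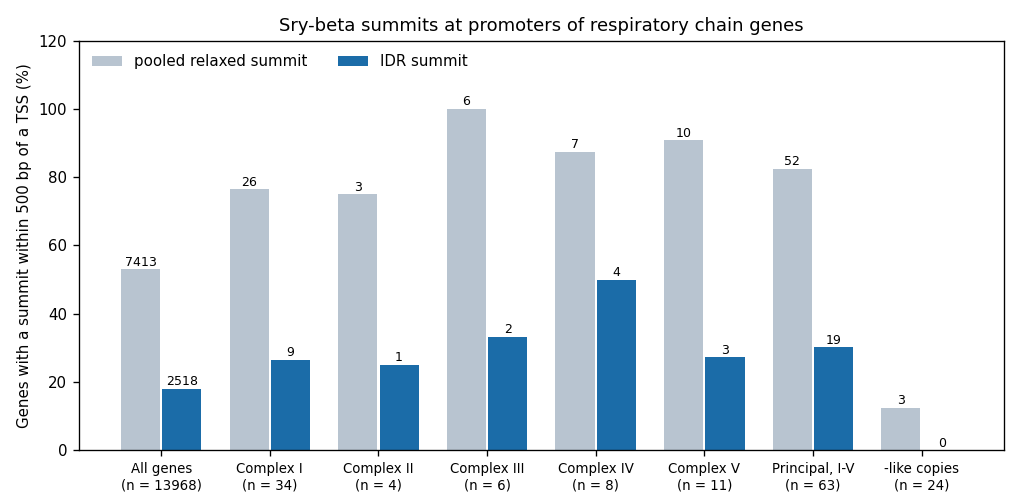
Bars give the percentage of genes with a pooled relaxed summit (grey) or an IDR summit (blue) within 500 bp of a TSS, for all protein-coding genes, the principal genes of each complex, all principal genes and the -like copies; numbers above the bars count genes. The principal genes stand at 82.5% and 30.2% and the -like copies at 12.5% and 0%.

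Many of these promoters are shared with a gene on the other strand. A protein-coding TSS lay upstream on the other strand within 1000 bp, head to head, at 40 of the 63 principal genes (63.5%) and 4 of the 24 -like copies (16.7%), against 36.2% of all genes. Among principal genes with such a partner 16 of 40 had an IDR summit (40.0%, all genes with a partner 34.4%). Without one it was 3 of 23 (13.0%, all genes without a partner 8.77%). Applied to the 40 and 23 principal genes, the shares of all genes give 15.8 genes with an IDR summit, and 19 were found. For the -like copies the same calculation gives 3.13, and 0 were found. Principal genes also had more annotated TSSs, 49.2% of them having only 1 against 87.5% of the -like copies and 73.5% of all genes. How much of the IDR share follows TSS number was not tested.

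In complex I, 9 of the 34 principal genes had an IDR summit (26.5%, all genes 18.0%). They were among the 22 with a head-to-head partner (40.9%, all genes with a partner 34.4%). Without a partner it was 0 of 12 (all genes without a partner 8.77%). The replicates alone gave 13 and 8 (30.9% ± 10.4, SD, n = 2, all genes 18.5% and 17.4%). The 7 nuclear-encoded subunits conserved down to bacteria include those that carry the flavin and the iron-sulfur clusters and some that help form the quinone site. They are ND-75, ND-51, ND-24, ND-49, ND-30, ND-20 and ND-23. Of these, 2 had an IDR summit (28.6%), as did 7 of the 27 other subunits (25.9%).

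ND-MNLL, a small accessory subunit, had the highest IDR peak with a summit within 500 bp of a member's TSS, on chrX:7893650-7894152, with a signal of 1766 and rank 355 in the IDR list. Its summit lay 63 bp upstream of the ND-MNLL TSS and as far from the TSS of CG45089. The summit at this place ranked 297 in replicate 2 (signal 663) and 376 in replicate 4 (signal 1149.5), so both libraries had it among their higher peaks. The head-to-head partner is p115, which encodes a Golgi vesicle tether, 233 bp away. ND-24, which carries an iron-sulfur cluster next to the flavin, followed with a signal of 1528 and rank 398 on chrX:17631955-17632446. Its summit lay 98 bp upstream of the nearest ND-24 TSS, and its ranks were 356 in replicate 2 (signal 539) and 407 in replicate 4 (signal 1013). The 101 bases around it had a GC content of only 22.8%, as the ND-24 sequence above shows. Its partner is corolla, a gene of the synaptonemal complex.

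ND-SGDH and ND-42 each had a pair of IDR summits. At ND-SGDH, an accessory subunit, the higher summit lay 6 bp inside the gene (chr3L:12138413-12138719, signal 658, rank 708). The other lay 193 bp upstream (chr3L:12138673-12138903, signal 519, rank 852) and only 91 bp from the TSS of RhoGAP68F, a GTPase-activating protein. The higher one ranked 1167 and 675 in replicates 2 and 4, and the other 1559 and 836. At ND-42, also an accessory subunit, the higher summit (chr3R:22027260-22027749, signal 401, rank 1110) was 204 bp upstream and 25 bp from the TSS of Cchl, the cytochrome c heme lyase. The other (chr3R:22027460-22027949, signal 255, rank 1921) was 4 bp upstream of the ND-42 TSS. At the place of the higher ND-42 summit the replicates ranked 1449 and 1159. For the other the nearest replicate summits ranked only 4254 and 12384, so neither replicate had it among its 3257 highest. No 2 IDR summits on an arm were closer than 199 bp, so both pairs are spaced at or near the smallest distance in the list.

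The other 5 complex I genes spanned a wide range of signals. ND-B18 (chrX:15063748-15063999, signal 493, rank 899) had its summit 58 bp upstream, with ranks 723 and 1008 in replicates 2 and 4. ND-MWFE, a membrane-arm subunit, had a signal of 318 and its summit at -152 bp, where negative positions are upstream of the TSS, 69 bp from the TSS of TppII, a peptidase gene. It ranked 1545 and 1806. The ND-ASHI summit (signal 246) lay at -265 bp and 257 bp from the TSS of Fum1, the fumarase of the tricarboxylic acid cycle, and ranked 1744 and 2765. ND-PDSW (signal 193) shares its promoter with msl-2, a dosage compensation gene whose TSS was 20 bp from the summit; it ranked 1949 in replicate 2 and 4868 in replicate 4. ND-51, the flavin-carrying subunit, had the lowest IDR signal of complex I, 190.3, at a summit 87 bp from the TSS of its partner CG13994, with ranks 2537 and 2469. Of these 5, ND-PDSW was the only one outside the 3257 highest peaks of a replicate. Among complex I genes without an IDR summit, ND-B22, ND-B17 and ND-13A, all subunits of the complex, had the highest pooled relaxed signals, 167, 131 and 130.3. All 3 were among the 3257 highest peaks of replicate 2, at ranks 1769, 2221 and 3070. In replicate 4 ND-B22 and ND-13A ranked 9047 and 6829 and ND-B17 had no summit.

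SdhA was the single complex II gene with an IDR summit, of 4 principal genes. It encodes the flavoprotein that oxidises succinate. The summit, 58 bp upstream, had a signal of 190.0 and rank 2797. Replicates 2 and 4 placed a summit at the same base, with ranks 3601 and 3265, so in neither was it among the 3257 highest. SdhD and SdhC, the membrane anchors, had pooled relaxed summits of signal 108 and 70.0, below the lowest signal of any IDR peak (169). SdhB, the iron-sulfur subunit, had a summit only in replicate 2, 7 bp from its TSS and at rank 9230.

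Of 6 principal complex III genes, UQCR-C1 and UQCR-C2 had an IDR summit (33.3%, all genes 18.0%). These 2 encode the large core proteins of the complex. The UQCR-C2 peak (chr3L:16583975-16584464) had a signal of 234 and its summit 53 bp upstream, with no other protein-coding TSS within 500 bp; it ranked 1331 and 2526 in replicates 2 and 4. UQCR-C1 (chr3R:14889977-14890466, signal 175, rank 3111) lay 9 bp upstream and 17 bp from the TSS of CycC, a Mediator cyclin. It ranked 1730 in replicate 2 and 6739 in replicate 4, so it was among the 3257 highest of replicate 2 and not of replicate 4. All 6 genes had a pooled relaxed summit. That of UQCR-6.4 had a signal of 168, just outside the IDR list, where UQCR-C1 was just inside. UQCR-11 and UQCR-14 had 87.4 and 58.5.

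Complex IV had an IDR summit at 4 of 8 principal genes (95% Wilson interval 21.5 to 78.5%, all genes 18.0%). The replicates alone gave 4 and 3 (43.8% ± 8.84, SD, n = 2, all genes 18.5% and 17.4%). The 4 genes with an IDR summit were among the 7 with a head-to-head partner (57.1%, all genes with a partner 34.4%). COX7B (chr3L:17425094-17425583) had the highest signal, 399.7, at a summit 138 bp upstream and 122 bp from the TSS of Sec3, an exocyst gene. It ranked 1564 in replicate 2 and 1150 in replicate 4. The COX7C summit (signal 360.2) lay 289 bp inside the gene and 23 bp from the TSS of oys, an acyltransferase gene on the other strand. It was 1 of only 2 member summits downstream of the member's nearest TSS. COX5A (chr3R:11819290-11819779, signal 234) had its summit 64 bp upstream, next to glo, an RNA-binding protein gene. The nearest replicate 2 summit there, 95 bp away, ranked only 12673, and a higher one 69 bp inside COX5A ranked 2695. COX6B (chrX:19744141-19744630, signal 189) lay 51 bp upstream, with CG33932 and Rpp20 within 45 bp, and ranked 1372 and 3998 in replicates 2 and 4. COX5B, COX7A and COX4 followed in the pooled relaxed list with signals of 107, 87.2 and 51.7. COX8 had no pooled summit, although both replicates had one, 39 bp upstream at rank 7977 in replicate 2 and 38 bp upstream at rank 3410 in replicate 4.

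Complex V had IDR summits at 3 of 11 principal genes (27.3%, all genes 18.0%). The replicates alone gave 3 and 4 (31.8% ± 6.43, SD, n = 2, all genes 18.5% and 17.4%). ATPsynO, the stalk subunit that joins the catalytic head to the stator, had a peak on chr3R:15265392-15265736 with a signal of 1296 and rank 447. Its summit was 13 bp upstream of the TSS with no other protein-coding TSS within 500 bp. The replicates ranked it 344 (signal 564) and 518 (signal 734), in both cases within 7 bp of the IDR summit. Of the 3 member peaks with no other protein-coding TSS that near, it had the highest signal. ATPsyngamma, the rotating central stalk (chr3R:29748714-29749203, signal 256), had a summit 90 bp upstream that ranked 6012 in replicate 2 and 1960 in replicate 4. ATPsynCF6, a peripheral stalk subunit (chr3R:23355894-23356383, signal 202), had a summit 75 bp upstream that ranked 3003 in replicate 2. The nearest replicate 4 summit, at rank 2498, was 239 bp away. ATPsynG, ATPsynE and ATPsynC, subunits of the membrane part, had pooled relaxed signals of 165, 151 and 149 without an IDR summit. ATPsynbeta, the catalytic subunit, lies on the fourth chromosome and had a summit only in replicate 4, at rank 13467. The other member on that chromosome, ND-49, likewise had one only in replicate 4, at rank 14797.

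**Figure D2:**
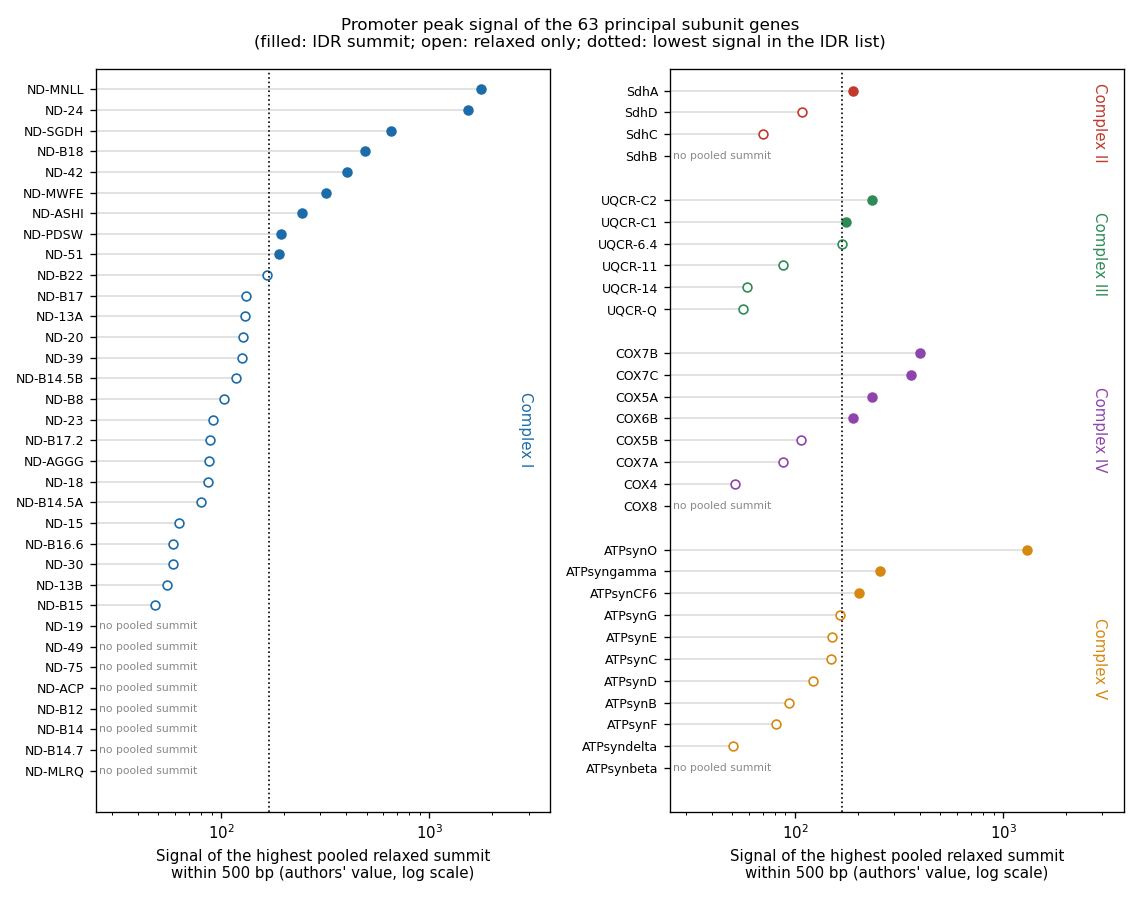
Each point is 1 principal gene, placed by the authors' signal (log scale) of its highest pooled relaxed summit within 500 bp of a TSS and grouped by complex (genes without one are marked as such); filled points have an IDR summit and the dotted line is the lowest signal in the IDR list, 169. ND-MNLL, ND-24 and ATPsynO stand apart at 1296 to 1766, and the open points end at 168.

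The member peaks with a summit within 500 bp ranked from 355 to 3111 in the IDR list of 3257. The 19 genes had 21 distinct IDR summits, with signals from 175 to 1766 and a median of 256, against a median of 310.0 over all 1988 promoter peaks. Of the 21, 10 (47.6%) were at or above the median signal of the whole IDR list, as were 54.5% of all promoter peaks. Replicate 2 had a summit within 100 bp of all 21, and replicate 4 of 20. There, 17 ranked among the 3257 highest of replicate 2 and 15 among those of replicate 4, and 13 did so in both. Over the 20 peaks matched in both replicates Spearman's rho of the ranks was 0.720. This describes peaks that the authors selected from the lists of both libraries.

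**Figure D3:**
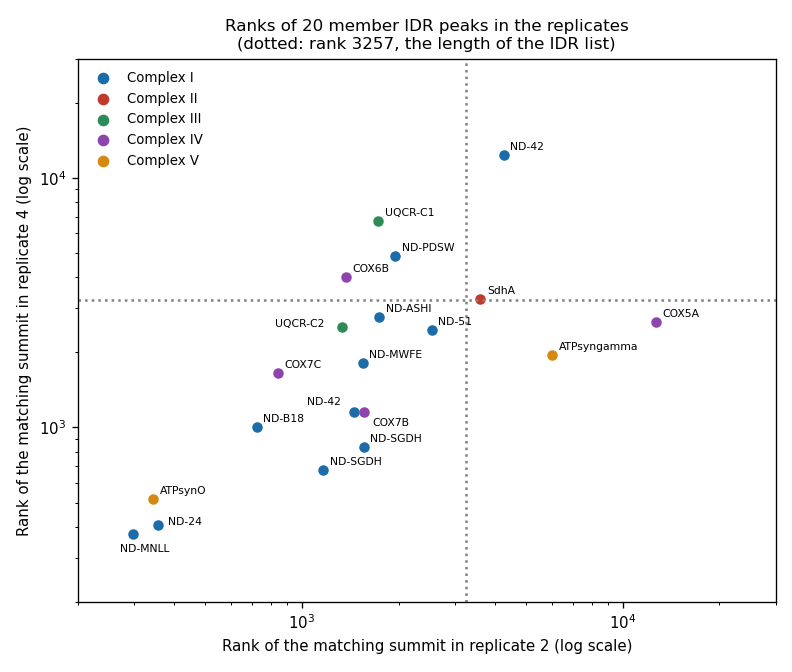
Each point is 1 of the 20 member IDR peaks that both replicates matched within 100 bp, placed by the rank of that summit in the relaxed lists of replicate 2 (x axis) and replicate 4 (y axis), both on a log scale; the dotted lines mark rank 3257. ND-MNLL, ND-24 and ATPsynO lead in both, while the lower ND-42 peak and SdhA fall past the line in both.

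Member summits lay close to and mostly upstream of the member's nearest TSS. Of the 21 IDR summits 19 (90.5%) were upstream of the member's nearest TSS and the median lay at -64.0 bp, while 14 (66.7%) were within 100 bp of it. The summits of ND-24, ND-B18, COX5A, UQCR-C2 and ATPsyngamma were upstream of the nearest TSS but inside the gene, downstream of its most upstream TSS. Over all promoter peaks, measured from the nearest TSS, 83.7% were upstream, the median was -84.5 bp and 51.0% were within 100 bp. The replicates taken alone gave medians of -48.0 bp in replicate 2 and -85.0 bp in replicate 4, with 80.0% and 76.2% of summits upstream. With a window of 1000 bp the upstream share of member IDR summits was also 80.0%. These 3 shares are below the 83.7% of all promoter peaks, which was counted in the IDR list with 500 bp and not recomputed for these settings. Whether the member share upstream was the higher one under them cannot be told. The highest pooled relaxed summits of the 33 principal genes without an IDR summit were placed alike, 28 of them upstream (84.8%) and 19 within 100 bp (57.6%), at a median of -56.0 bp. Among all 4895 genes with a pooled relaxed but no IDR summit these shares were 69.9% and 42.4%.

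**Figure D4:**
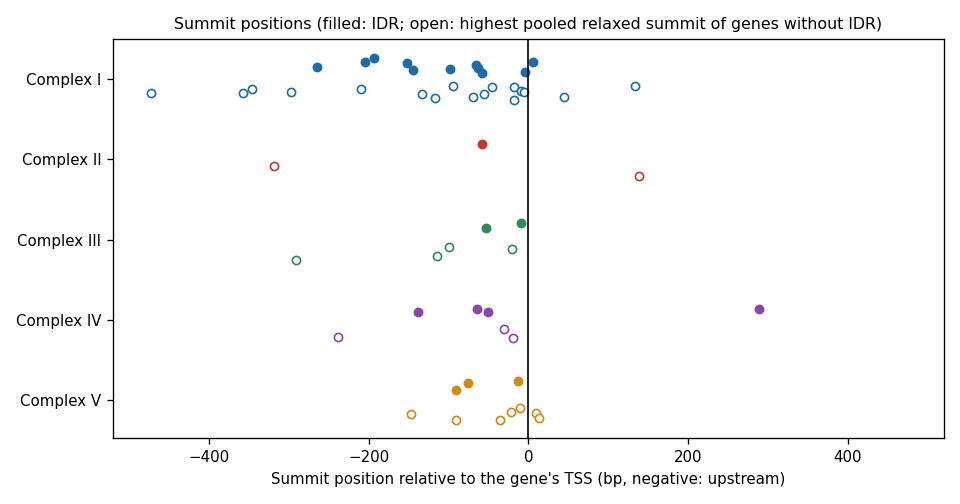
Horizontal positions are the distances in bp from a summit to the gene's TSS (negative is upstream) for the IDR summits (filled) and for the highest pooled relaxed summit of principal genes without one (open), in a row for each complex, with vertical scatter added for legibility. Of the filled points only those of COX7C at 289 bp and ND-SGDH at 6 bp are downstream of the gene's nearest TSS.

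A neighbouring gene was near most of these summits. Another protein-coding TSS lay within 500 bp of 18 of the 21 (85.7%), against 46.3% of all promoter peaks. The 2 shares are not alike, because member peaks were reached through genes and a peak near several genes is reached more easily. Counted by gene, 16 of the 19 members with an IDR summit had a head-to-head partner. Of all 2518 genes with an IDR summit, 1736 had one. The exceptions were ATPsynO, UQCR-C2 and SdhA. The member's own TSS was the nearest, ties included, for 12 of the 21, and counting a gene only when its TSS was the nearest left 12 members with an IDR summit. In that count complex IV fell from 4 genes to COX5A alone. Which gene of a pair a summit belongs to cannot be told from these lists. Among the neighbours were other genes of mitochondrial function, Cchl beside ND-42 and Fum1 beside ND-ASHI. ND-B16.6 is paired with kdn, the citrate synthase, and ATPsynD with mRpL55, a mitochondrial ribosomal protein, and these had pooled relaxed signals of 58.9 and 122 without an IDR summit. These 4 pairs were picked out after the partners were seen.

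The -like copies had few summits of any kind. Of the 6 with a relaxed summit, 5 had it far below the IDR list or in 1 replicate alone. ATPsynepsilonL had a pooled relaxed signal of 51.4, ND-B14.5AL 42.7 and COX4L 37.8, while ATPsynbetaL had a summit only in replicate 2 (rank 16864) and UQCR-6.4L only in replicate 4 (rank 28450). The exception was COX7AL2. Its IDR peak on chr2L:2196936-2197974 covers its TSS at 2197912, but the summit lay 558 bp inside the gene and so outside the window of 500 bp. With a signal of 5064 and rank 97 it was higher than the peak of any counted member. The matching summits ranked 99 in replicate 2 and 82 in replicate 4. Each replicate also had a second summit in this peak, 361 and 324 bp inside the gene, at ranks 618 and 222, which is why COX7AL2 counts in the replicates alone. A further IDR summit, of signal 441, was 537 bp upstream of another COX7AL2 TSS. No TSS of another gene, coding or not, lay within 1000 bp of either summit. Also just outside the window was an IDR summit 797 bp downstream of an ND-15 TSS. It lay past the end of ND-15 and 17 bp from the TSS of CG3436. Another lay 995 bp downstream of a UQCR-Q TSS, inside that gene and 178 bp from the TSS of CG34250.

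Counts of the searched motifs at member summits were small, and their shares lay on both sides of those of all promoter summits. Within 50 bp of the 21 summits the DRE, the site TATCGATA of the factor DREF, was found at 0, and at 5.28% of all 1988 promoter summits. TAGCTA was also at 0, against 9.10%, and so was the in vitro consensus of Sry-beta with at most 2 mismatches, against 1.06%. AGAGATG, the core shared by the consensus sequences of Sry-beta and Sry-delta, was at COX7C alone (4.76%, all promoter summits 3.27%). The Motif 1 core GGTCACAC was at UQCR-C2 and ND-PDSW (9.52% and 3.12%), and the ND-PDSW window holds it at bases 39 and 89 of the sequence shown. The NRG element, a palindrome described in nuclear respiratory gene promoters of Drosophila, was at 0 of 21 and 0.252% of all. The site of Ewg, the fly relative of the vertebrate factor NRF-1, with at most 1 mismatch, was at 0 of 21 and 0.101%. CAGCTG, chosen after these sequences were read, was at 6 of the 21 (28.6%) and at 6.99% of all promoter summits. With 25 bp on either side in place of 50 it was at 3 (14.3% and 3.32%). The 6 were ND-42, ND-B18, ATPsynO, ATPsynCF6, UQCR-C1 and UQCR-C2, whose sequences are shown above. With 21 summits a single match moves a share by 4.76 percentage points. A count of 0 of 21 thus cannot be told from the low shares of all promoter summits. All motifs were searched on both strands. The DRE is a palindrome, as are the words TAGCTA and that of the E-box, and the consensus of Sry-beta contains the shared core.

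The same motifs were counted in 1 promoter window for each gene, from 250 bases before to 50 after its most upstream TSS, whether or not it had a summit. The Motif 1 core was in 15 of the 63 principal promoters (23.8%), 1 of the 24 -like promoters (4.17%) and 7.69% of all. CAGCTG was in 19 (30.2%), 2 (8.33%) and 17.6%, and the DRE in 9 (14.3%), 0 and 9.36%. Principal genes with and without an IDR summit held the Motif 1 core in 4 of 19 and 11 of 44 promoters and the DRE in 1 and 8. TAGCTA was in 4 of 19 (21.1%) and 4 of 44 (9.09%), and CAGCTG in 7 (36.8%) and 12 (27.3%). The window misses IDR summits that lie further inside a gene, such as those of ND-B18 and UQCR-C2. Both of these had CAGCTG at the summit, and UQCR-C2 the Motif 1 core, but not in the window. The counts for genes with an IDR summit are therefore not counts of motifs under their peaks. The NRG element and the Ewg site were in 0 of the 63, and in 0.873% and 0.909% of all promoters. TAGCTA was in 8 of the 63 (12.7%, all 7.37%), the shared core in 3 (4.76%, all 4.93%) and the Sry-beta consensus in 2 (3.17%, all 1.47%). These are counts of letters in a window and do not show what binds there.

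Other genes related to mitochondrial function had IDR summits at 29.1%, beside 30.2% of the principal genes. Over 6 lists, 55 of 56 symbols matched, and 16 of the 55 had an IDR summit, against 18.0% of all genes, while 46 (83.6%) had a pooled relaxed one. Among respiratory subunits with other names it was 3 of 11. These were blw, the ATP synthase alpha subunit (signal 806), levy, a complex IV subunit (219), and Cyt-c-d, a cytochrome c gene (515), and the summits of the last 2 were nearer to wmd and CG31808. In the tricarboxylic acid cycle it was 4 of 11, and 7 in the 3257 highest peaks of replicate 2 alone (all genes 18.5%). The highest of the 4 was mAcon1, the mitochondrial aconitase, with a signal of 6548 and rank 45. Idh3g (467), Fum1 (246) and ScsbetaA (173) followed, and the Fum1 peak is that of ND-ASHI. Protein import had 3 of 12, with ttm50, a translocase subunit, at 6273 and rank 52, Tom70 at 301 and Tim10, a small carrier chaperone whose summit was nearer to Ppcdc and CG42496, at 222. Maintenance and transcription of mitochondrial DNA had 4 of 11, and 2 in the 3257 highest peaks of replicate 4 alone (all genes 17.4%). The 4 were mTerf3, a mitochondrial transcription termination factor family gene (2332), PolG2, a subunit of the mitochondrial DNA polymerase (821), mtSSB, the single-strand binding protein (239), and mTerf5 (177). The summit at PolG2 was nearer to Polr2C. Assembly factors with other names had 2 of 7, CIA30 (324) and sicily (218), and 1 in the 3257 highest peaks of replicate 4 alone. Of the regulators ewg, srl and Ets97D none had an IDR summit, though 1 had a summit among the 3257 highest peaks when replicate 4 was left out, and ewg and srl had a pooled relaxed one. Of the 16 genes, all but Cyt-c-d, ScsbetaA, Tom70, mtSSB and sicily had a head-to-head partner. Over all genes with a partner the IDR share was 34.4%. How much of the 29.1% follows such partners was not tested.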

How the data were processed

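ChIP-seq peak lists from 2 libraries of 1 group were used. Per the deposited readme files, each relaxed list was made from a library's alignment, or from both, with a control alignment. All 3 fed the IDR list, on dm6. No aligner, peak calling program or IDR cutoff is named in the sources used here. Peak signal is a deposited value of unstated scale, taken unchanged. The deposited −log10 q values are a single value in the IDR list and were not used.

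Everything else was computed with Python 3.11.15, numpy 2.4.6, pandas 2.3.3, scipy 1.17.1 and matplotlib 3.10.9. The TSSs are those of Ensembl release 115, and bases were read from RefSeq's copy of release 6, which is dm6; no peak passed the end of an arm. Summits past a peak's end were moved to its last base (2 IDR peaks). Replicate values used the 3257 highest peaks of each relaxed list. Assignment of summits and motifs was tested on planted positions. No test was run. Subunits with an L in the name of their residues (ND-MNLL) were kept out of the -like copies, which the design had defined by a final L. Sequences of some peaks are not reported here.

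The members, gene lists and motifs were chosen with earlier results of these data known. Named genes are all members with an IDR summit, their nearest neighbours, the 3 highest relaxed-only members of each complex and list genes with an IDR summit. Members at a threshold, without any summit or on the fourth chromosome, the -like copies named, the paired mitochondrial genes and the word CAGCTG were added after values were seen. Alternatives covered the window, the overlap rule, the nearest gene, each replicate alone, a stricter signal and the motif flank.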

Additional observations from a re-analysis of the deposited data

How the results depend on the processing

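No paired analysis was possible because there is only 1 group. Depth is unknown, the 2 replicates give little measure of spread, and counts per complex are small. With windows of 250 and 1000 bp 17 and 22 members had an IDR summit, and with any base of the peak in the window 20, against 19; the principal genes stayed above the share of all genes in each (27.0%, 33.3% and 30.2% against 15.0%, 20.1% and 19.2%). Counting only the nearest gene gave 12 members, all of them principal (19.0%, all genes 13.2%), with 5 in complex I and 1 in complex IV. IDR peaks at or above the list's median signal gave 9 (all principal, 14.3%, all genes 10.3%), with 0 in complexes II and III, 2 in IV and 1 in V. Leaving out a replicate gave 18 to 23 members, 17 to 22 of them principal, with 0 in complex II either way; without replicate 2, 15 of the 19 genes were kept, and without replicate 4, 17. The -like copies had 0 in the main count and 1, COX7AL2, with the window of 1000 bp, with any overlapping base and without either replicate. The median rank of member peaks was 1903, and 1564 to 1806 with a replicate left out. With a motif flank of 100 bp the DRE was at 1 summit (4.76%, all promoter summits 10.3%) and TAGCTA at 2 (9.52%, all 13.9%). The Motif 1 core was at 1 summit with a flank of 25 bp (4.76%, all promoter summits 1.36%), and with a replicate left out at 1 to 3 summits. TAGCTA was at 0 to 1 with a replicate left out. CAGCTG, chosen after the sequences were read, was at 3 to 8 summits with these flanks. With 25 bp its share was 14.3% (all promoter summits 3.32%) and with 100 bp 38.1% (all 14.9%). The related gene lists had 9 genes with an IDR peak at or above the median signal, against 16. The cause was not tested.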
